A study of Mus musculus with 27 samples.

Results

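DNA methylation of C2C12 myotubes was compared between a first and a second cycle of 24 h after the cells had been synchronised, at matched circadian phase. The comparison took 24 of the 27 libraries of a time course: 12 libraries of the first cycle, at 12 h, 18 h, 24 h and 30 h after serum shock, and 12 of the second cycle, at 36 h, 42 h, 48 h and 54 h. Each time point had 3 replicates, and 12 h was matched with 36 h, 18 h with 42 h, 24 h with 48 h and 30 h with 54 h. The libraries were chosen by time point alone and not by any measured value. Those of 60 h were left out, since 12 h was already matched with 36 h, and are given only as values beside the comparison. All 24 libraries came from the same line without a genetic change: C2C12 myoblasts were taken to differentiation with 2% horse serum and then given 50% horse serum for 2 h as the shock. Unshocked cells were not analysed here, so time since the shock and time in culture cannot be told apart. Whether replicates were separate cultures is not said, so the p-values hold for the spread among these libraries, part or all of which may be technical.

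C2C12 is a mouse myoblast line that leaves the cell cycle in low serum and fuses into myotubes with many nuclei. A short pulse of concentrated serum resets the clocks of the cells in a dish, so that they start from a shared phase. In the clock, CLOCK and BMAL1 bind E-box sequences and drive the Per and Cry genes, whose proteins shut CLOCK and BMAL1 down again in a loop of about a day. Methylation of cytosine in CpG pairs is copied at DNA replication by DNMT1, set anew by DNMT3A and DNMT3B and oxidised by TET enzymes. CpG-rich gene starts are mostly unmethylated in mammals, while most other CpGs are methylated. A mark that followed the clock would return to its level after a full cycle, and one that drifted with time in culture would not; the comparison of the same phase in successive cycles addresses the second kind of change.

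Reduced representation bisulfite sequencing (RRBS) reads short CpG-rich fragments cut by a restriction enzyme, and the deposited values are methylation levels from 0 to 1 at single positions, given here in percent. The 855862 autosomal positions with a level in all 24 libraries were joined into 22981 runs wherever neighbours lay at most 100 bp apart, and the level of a run is the mean over its positions. A run held a median of 23 positions over 244 bp. Of the runs, 8662 overlapped the window from 250 bp before to 50 bp after a gene start, 11903 lay in a gene body, 1303 within 1000 bp of a gene and 463 between genes, and for the other 650 start windows were not given here. A level averages over the cells of a library, so a run methylated in part of the cells and a run methylated at part of its CpGs in every cell cannot be told apart. No RNA level is in these data, so the label of the cells could not be checked on expression of muscle genes.

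The runs whose difference between cycles had the smallest p lay partly at gene starts. Stretches before such starts are shown because these runs are described below, although none of them was called between the cycles. Each is on the strand of its gene, 5′ to 3′, from RefSeq on GRCm38 (mm10), and capitals mark bases whose methylation was measured. The first is the part of the Dnali1 run that precedes the gene start, at chr4:125065658-125065719. Then follow Osbpl5 at chr7:143757009-143757139, Crispld2 at chr8:119992188-119992437, Trim71 at chr9:114564511-114564619 and Trpv4 at chr5:114658422-114658447.
Dnali1: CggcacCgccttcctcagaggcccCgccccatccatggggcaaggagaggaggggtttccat
Osbpl5: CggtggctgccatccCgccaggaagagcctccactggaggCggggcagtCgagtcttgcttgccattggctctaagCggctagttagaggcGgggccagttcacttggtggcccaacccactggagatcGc
Crispld2: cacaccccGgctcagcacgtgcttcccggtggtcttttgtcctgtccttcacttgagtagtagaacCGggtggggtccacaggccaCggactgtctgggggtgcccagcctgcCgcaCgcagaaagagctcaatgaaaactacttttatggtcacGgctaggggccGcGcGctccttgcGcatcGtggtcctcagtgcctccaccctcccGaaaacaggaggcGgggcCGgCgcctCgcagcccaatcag
Trim71: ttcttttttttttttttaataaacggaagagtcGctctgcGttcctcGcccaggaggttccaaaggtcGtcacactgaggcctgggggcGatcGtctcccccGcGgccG
Trpv4: GggcGcGggtgggcGggaccccGcGg
The measured bases number 3 in the 62 bp of Dnali1, 7 in the 131 bp of Osbpl5, 18 in the 250 bp of Crispld2, 9 in the 109 bp of Trim71 and 6 in the 26 bp of Trpv4. Bases 1 bp apart are the C and the G of the same CpG, so they are not separate sites.

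The libraries differed in completeness. A library of the first cycle lacked a value at 2154 to 21290 autosomal positions and one of the second cycle at 1577 to 11949. The share of positions at exactly 0 was 5.29% to 25.9% in the first cycle, with a mean of 16.6%, and 7.65% to 21.4% in the second, with a mean of 14.8%. Replicate 3 of 12 h stood apart, with the highest count of missing positions and the highest share at 0. Read depth is unknown, so no counting error can be given, and the part of these differences in the results was not tested. The main counts and the results at 12 h are given with and without it.

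Methylation of the myotubes was nearly the same in both cycles. Across the 22981 runs, which are not independent replicates, the mean levels of the cycles had a Pearson correlation of 0.996, and the mean absolute difference was 1.39 percentage points. No run differed between the cycles at an adjusted p under 0.05 in limma's moderated test (0% called, smallest adjusted p 0.398). At an unadjusted p under 0.05 stood 995 runs, which is 4.33% of those tested. Of these, 548 were higher in the second cycle (2.38% of all runs) and 447 were lower (1.95%). Without replicate 3 of 12 h no run was called either, and 1006 had an unadjusted p under 0.05, of which 45.5% were higher in the second cycle, against 55.1% with all libraries. No run had its 12 levels of a cycle all above or all below the other 12 (0%). When libraries were matched by phase and replicate number, 108 runs (0.470%) moved in the same direction in 11 or 12 of 12 matches, although the numbers were not found to pair the libraries.

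**Figure D1:**
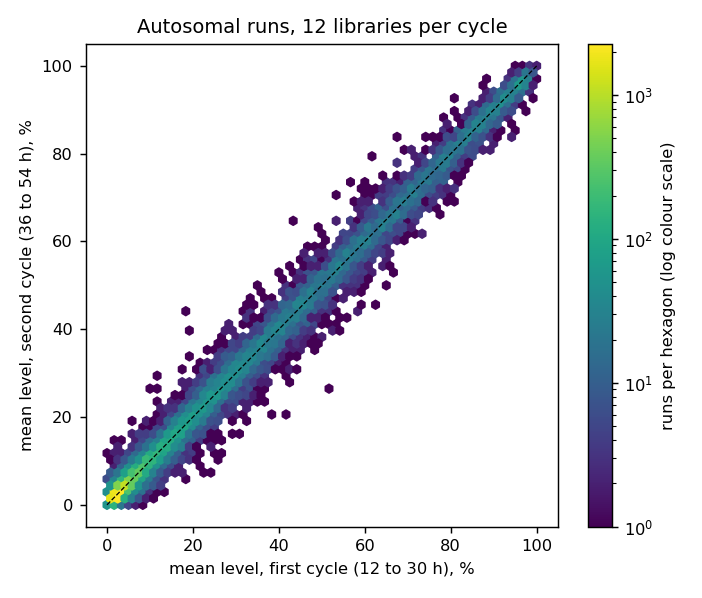
Mean methylation level of each of the 22981 autosomal runs in the first cycle (x axis, percent) against the second cycle (y axis, percent), each the mean of 12 libraries. The runs lie along the diagonal (Pearson r 0.996) and 95.98% of them stayed in the same of 4 level classes.

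Hypomethylated runs stayed hypomethylated and methylated ones methylated. Of the runs under 10% in the first cycle, 97.6% were under 10% in the second, and 328 lay between 10% and 50%. Runs at 10% to 50% stayed in that class in 93.3% of cases and runs at 50% to 90% in 94.7%. Those at 90% or more stayed there in 89.2%, and the 69 others lay between 50% and 90%. No run passed from under 10% to 50% or more, or back. A difference of at least 5 points was seen in 1025 runs and one of at least 10 points in 134, of which 70 were higher in the second cycle. The 95% confidence interval lay wholly beyond 5 points in 8 of the 22981 runs. These intervals hold for 1 run at a time and are not adjusted for the number of runs, and no run was called between the cycles.

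How large a difference could have been missed varied with the level. The 95% confidence interval of the cycle difference had a median half-width of 2.56 points over all runs, and it lay within 5 points on either side of 0 in 65.5% of them and within 10 points in 90.0%. Among runs under 10% it lay within 5 points in 87.3%, and among runs at gene starts in 81.2%. For the 8516 runs at 10% to 90% it lay within 5 points in 29.5% and within 10 points in 76.4%. Long runs were measured best: 94.1% of those with at least 50 positions had an interval within 5 points, against 17.2% of those with fewer than 5. For runs at intermediate level the median half-width was 4.79 points. The closest bounds among intermediate runs were at Ccdc134, whose run over the gene start (chromosome 15, 82127345 to 82127855, 49 positions) had 12.9% in the first and 12.3% in the second cycle (interval -1.45 to 0.215 points). The run of Tcf7, a transcription factor of Wnt signalling (chromosome 11, 52282112 to 52283703), went from 16.9% to 16.7% (interval -1.05 to 0.751). That of Ppara, a nuclear receptor of fatty acid oxidation (chromosome 15, 85735016 to 85736421), had 9.65% and 10.5% (interval -0.169 to 1.79). At Dxo and Stk19 (chromosome 17, 34836746 to 34838461, 145 positions) the levels were 12.6% and 12.7% (interval -0.762 to 0.931).

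The mean level of a library over all runs was 19.2% ± 0.412 (SD, n = 12) in the first cycle and 19.2% ± 0.345 (SD, n = 12) in the second. The libraries lay between 18.6% and 19.8% in the first and between 18.8% and 20.1% in the second cycle, so the groups overlapped over nearly their whole range. The difference of 0.0451 points was smaller than the spread between libraries (exact permutation test within phase, two-sided, p = 0.779, adjusted over 2 tests 0.779), and the level was higher in the second cycle in 5 of 12 matches by phase and number. Without replicate 3 of 12 h the difference was -0.0181 points. The share of runs at 10% to 90%, a measure of how sharp the pattern was, was 37.1% ± 0.918 (SD, n = 12) in the first and 37.3% ± 0.938 (SD, n = 12) in the second cycle (same test, p = 0.479, adjusted 0.779). That difference was 0.271 points, and 0.109 points without replicate 3 of 12 h. By time point the mean level ran from 19.06% ± 0.685 (SD, n = 3) at 12 h to 19.5% ± 0.575 (SD, n = 3) at 48 h. The SD between replicates was higher in the first cycle in 12010 runs (52.3%), so both cycles were measured about as well.

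**Figure D2:**
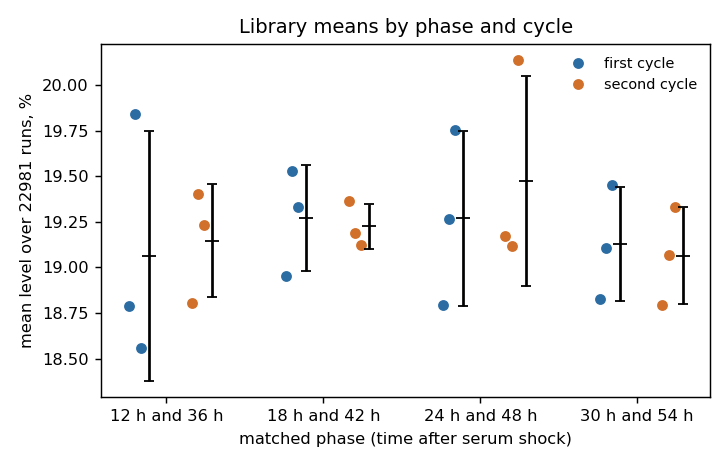
Mean level over all runs (percent) of each library, by matched phase (hours after serum shock), with the first cycle in blue and the second in orange. Points are the 3 libraries of a time point, and bars are their mean and SD. The libraries of both cycles lie in the same band, 18.6% to 19.8% and 18.8% to 20.1%.

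Among runs higher in the second cycle, the smallest p belonged to the start of Dnali1, an axonemal dynein light intermediate chain of motile cilia (chromosome 4, 125065557 to 125065719, 7 positions, partly shown above). Its level was 6.13% to 16.6% with a median of 11.4% in the first cycle and 15.5% to 33.2% with a median of 21.2% in the second. Only the lower end of the second cycle overlapped the first. The difference was 9.73 points (SE 1.80, adjusted p = 0.398), higher in 12 of 12 matches, but at 60 h the 3 libraries had 13.5%, 25.6% and 3.91%. A run in the body of Atg9a, a lipid scramblase of autophagy (chromosome 1, 75190316 to 75190454, 9 positions), had 65.6% to 79.2% (median 73.9%) and then 74.2% to 85.1% (median 78.8%). It was also higher in 12 of 12 matches, by 5.91 points (SE 1.51, adjusted p = 0.985), with a broad overlap of the cycles. In Nr1i2, which encodes the xenobiotic sensor PXR, a run of 5 positions (chromosome 16, 38294045 to 38294120) had 49.4% to 83.4% (median 66.2%) and then 74.2% to 100% (median 81.2%), a difference of 16.5 points (SE 3.70, adjusted p = 0.985). Emp2, a tetraspan membrane protein, had the largest difference of these 10 (chromosome 16, 10313387 to 10313457, 5 positions), with 0% to 38.7% (median 18.5%) and then 21.8% to 62.9% (median 34.7%). That is 21.2 points (SE 5.43, adjusted p = 0.985), in 11 of 12 matches, on very scattered levels.

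The other starts shown above differed less clearly. Osbpl5, a lipid transfer protein, had a mean of 4.15% and then 8.13% at its start (chromosome 7, 143756898 to 143757139). Crispld2, a secreted protein, had 16.3% and 25.5% (chromosome 8, 119992145 to 119992495), and Trim71, a ubiquitin ligase and RNA-binding protein of early development, 18.0% and 27.7% (chromosome 9, 114564511 to 114564685). In all of these the adjusted p was 0.985 and the ranges of the cycles overlapped: the first-cycle libraries of Trim71 reached 39.4% and those of the second 40.5%. The rest of the 10 lay in gene bodies. The Wnt receptor gene Fzd9 had 87.9% and 90.8%, the luteinizing hormone subunit gene Lhb 61.9% and 79.8% over 3 positions, and Mogat2, a monoacylglycerol acyltransferase, 44.7% and 53.3%.

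Among runs lower in the second cycle, the smallest p belonged to a run at Lysmd4, a LysM-domain protein, that reaches into the start window of the neighbouring 1700112J16Rik (chromosome 7, 67222758 to 67222912, 6 positions). Its level was 6.55% to 17.0% (median 11.4%) in the first cycle and 0% to 9.97% (median 4.58%) in the second. The difference was -6.27 points (SE 1.12, adjusted p = 0.398), lower in 12 of 12 matches, and the 60 h libraries had 2.89%, 0% and 4.91%, in the range of the second cycle. Next was a run of 7 positions at the neighbouring genes Gmps, which encodes GMP synthase, and Slc33a1, an acetyl-CoA transporter (chromosome 3, 63963571 to 63963700). Levels there were 3.37% to 12.9% (median 7.42%) and then 1.38% to 7.33% (median 3.35%), a difference of -4.34 points (SE 0.855, adjusted p = 0.550), again lower in 12 of 12 matches. The start of Trpv4, a cation channel opened by osmotic and mechanical stimuli (chromosome 5, 114658404 to 114658447, 11 positions), had 20.7% to 36.1% (median 30.1%) and then 3.17% to 33.3% (median 17.3%). Its difference was -13.0 points (SE 2.78, adjusted p = 0.985), but the 60 h libraries had 17.5%, 46.1% and 31.0%, the highest of them above the whole first cycle.

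A long run in Sim2, a bHLH-PAS transcription factor (chromosome 16, 94084767 to 94085331, 71 positions), had 18.6% to 33.4% (median 25.3%) and then 13.2% to 25.2% (median 20.6%), a difference of -5.65 points (SE 1.37, adjusted p = 0.985). It is the run with most positions among the 20 described here, of which 12 held fewer than 10. In Cdh1, the E-cadherin gene of epithelial junctions (chromosome 8, 106604125 to 106604226), the means were 49.2% and 38.5%, and in Kat5, a histone acetyltransferase (chromosome 19, 5608916 to 5609011), 94.7% and 84.8%. Ereg, a ligand of the EGF receptor (chromosome 5, 91074497 to 91074718), had 3.63% and 0.366%, with several libraries of both cycles at 0. Eva1b had 72.8% and 62.1%, Raph1, an actin regulator, 4.95% and 2.73%, and a run between genes near Stx16 46.0% and 37.7%. The adjusted p was 0.985 in each.

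Of these 20 runs, 19 had the same direction in all 4 phases, 9 in 11 or 12 of 12 matches (0.470% over all runs) and 4 in all 12. They were picked for their small p on the same libraries, so these counts describe the choice and support nothing. The 60 h libraries took no part in the choice. A level in all 3 of them was found in 19 runs. The 60 h mean was nearer the second-cycle mean in 8 of these and nearer the first-cycle mean in 11. Those cycle means cover 4 phases and 60 h is a single phase, so this was not a comparison at matched phase.

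**Figure D3:**
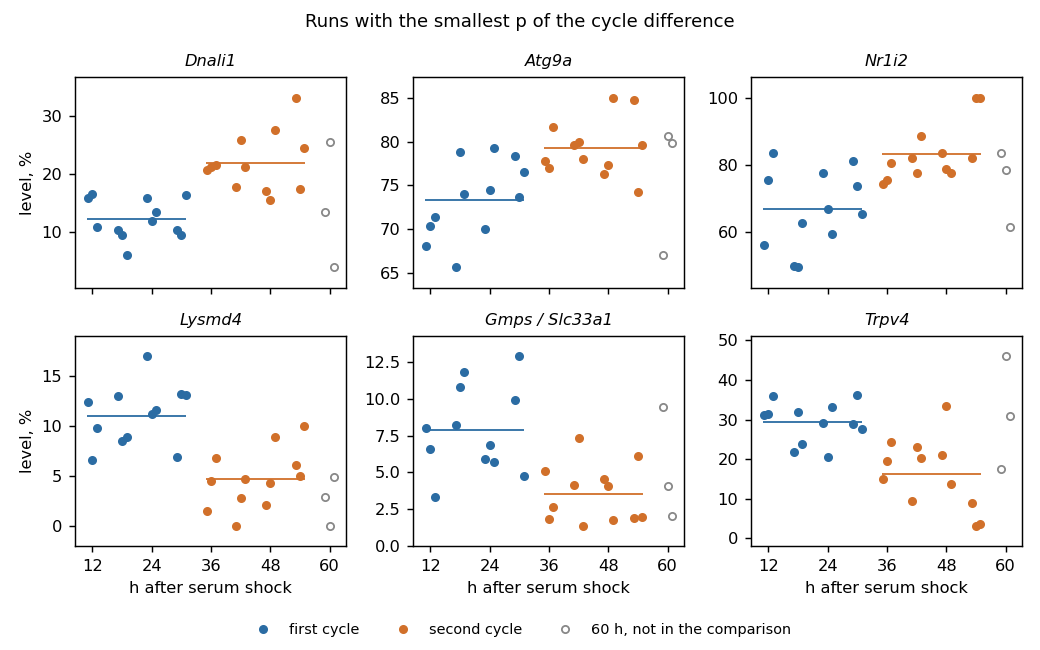
Methylation level (percent) against hours after serum shock for the runs of Dnali1, Atg9a and Nr1i2, higher in the second cycle, and Lysmd4, Gmps with Slc33a1 and Trpv4, lower. Each filled point is a library, horizontal lines are cycle means, and open points are the 60 h libraries, which scatter across both cycles.

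The largest differences between cycles lay in short runs with scattered levels. Slc38a1, a glutamine transporter (chromosome 15, 96643172 to 96643236, 5 positions), had 19.4% to 100% (median 41.4%) in the first and 0% to 68.4% (median 27.3%) in the second cycle, a difference of -25.1 points (SE 9.65, adjusted p = 0.985). Chst9, a sulfotransferase, was 25.9 points higher in the second cycle (SE 8.68), with levels of 5.84% to 100% there. Kcnj3, a potassium channel, was 21.6 points higher (SE 9.98) and the leukocyte receptor gene Gpr84 18.2 points (SE 6.92). Pacsin1, an endocytic adaptor of neurons, was lower by 22.1 points (SE 7.16), the cardiac T-box gene Tbx20 by 17.6 (SE 7.79), Tent5c by 16.0 (SE 6.12) and Tor4a by 15.8 (SE 6.65). None had an adjusted p under 0.985.

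Within single phases a few runs passed the threshold. Of 22981 runs, limma called 1 between 36 h and 12 h (0.00435%), 0 between 42 h and 18 h (0%), 2 between 48 h and 24 h (0.00870%) and 1 between 54 h and 30 h (0.00435%). Unadjusted p-values under 0.05 were found in 1101 (4.79%), 998 (4.34%), 1089 (4.74%) and 1168 runs (5.08%) in the same order. Without replicate 3 of 12 h, 2 runs were called between 36 h and 12 h. The differences of the 4 phases, which share no libraries, were nearly unrelated across runs, with Pearson correlations of -0.00868 to 0.0318 over 6 pairs. Of the 22981 runs, 1516 were higher in the second cycle in all 4 phases and 1365 were lower in all 4. Unrelated differences also give runs with the same sign in all 4 phases, so these counts alone show no shift between the cycles.

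Rxra, the retinoid X receptor and partner of many nuclear receptors, had a run of 10 positions in its body (chromosome 2, 27677886 to 27677999) at 0% in the 3 libraries of 12 h and at 20.4%, 26.3% and 11.5% at 36 h. The level was higher in each of the 36 h libraries than in any other library of the series, where it reached 8.90% in 1 library of 60 h. The difference at this phase was 19.4 points (SE 2.41, adjusted p = 0.0142), and 20.2 points without replicate 3 of 12 h (adjusted p = 0.0385). The fit behind each phase contrast pools the spread of a run over all 8 time points. For Rxra the SD between replicates was 0 at 12 h, 18 h, 30 h and 42 h, but 7.47 at 36 h. The SE and p therefore do not measure the spread of the 12 h and 36 h libraries alone. In Pnpla2, the gene of adipose triglyceride lipase, a run of 14 positions (chromosome 7, 141455481 to 141455673) had 0%, 1.02% and 3.20% at 24 h and 19.3%, 24.4% and 12.8% at 48 h. The 48 h libraries stood above all others, which reached 7.30%, and the difference was 17.4 points (SE 2.26, adjusted p = 0.0122). Here too the SE is pooled, while the SD between replicates was 1.63 at 24 h and 5.82 at 48 h. Trim29, a TRIM-family protein of epithelia (chromosome 9, 43311258 to 43311501, 15 positions), had 75.2%, 76.4% and 79.2% at 24 h and 91.0%, 87.6% and 92.9% at 48 h. Its difference was 13.6 points (SE 1.71, adjusted p = 0.0122), the groups were apart, and the level at 60 h was 86.2%, 81.9% and 87.7%. The Slc38a1 run named above had 67.0%, 100% and 100% at 30 h and 0%, 0% and 22.8% at 54 h, a difference of -81.4 points (SE 10.9, adjusted p = 0.0347) over only 5 positions.

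These calls depended on single libraries, on the scale and, for Slc38a1, on the replicate number as a block: without that block its adjusted p was 0.186 and no run was called at 54 h against 30 h. That of Rxra was lost without replicate 1 or 2 of 12 h or replicate 1 of 36 h (adjusted p up to 0.15), and that of Pnpla2 without replicate 1 or 2 of 24 h or replicate 1 of 48 h (up to 0.174). The call of Trim29 was lost without any 1 of the 24 h libraries or without replicate 1 or 3 of 48 h (up to 0.174). That of Slc38a1 was lost in 15 of the 24 omissions of a library (up to 0.148) and kept without replicate 1 or 3 of 12 h, 2 or 3 of 18 h, 3 of 24 h, 2 or 3 of 36 h, or 1 or 2 of 48 h. On logit-scaled levels (M values) Slc38a1 passed, at an adjusted p of 0.0215, while Rxra had 0.0780, Pnpla2 1 and Trim29 0.366.

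A test of whether the cycle difference itself differed between phases called 1 run (0.00435%), that of Trim29 (adjusted p = 0.0462). Its differences were -5.32 points at 36 h against 12 h, -4.24 at 42 h against 18 h, 13.6 at 48 h against 24 h and -2.70 at 54 h against 30 h. Its adjusted p was 0.112 without replicate 3 of 12 h, 0.0854 without the replicate block, 0.474 on M values and 0.214 among runs at 10% to 90%, and the call was lost in 19 of the 24 omissions of a library. At an unadjusted p under 0.05 stood 942 runs (4.10%). The next smallest p belonged to Pnpla2, Rxra, Setd1a and Hpca, each with an adjusted p of 0.312. Setd1a, a histone H3K4 methyltransferase, had means of 10.5%, 24.2%, 21.1% and 14.5% from 12 h to 30 h and 25.2%, 7.63%, 10.7% and 24.1% from 36 h to 54 h. Hpca, a neuronal calcium sensor, has a long run over its start with 18.5%, 21.9%, 21.1% and 15.4% in the first and 17.4%, 19.6%, 17.0% and 21.5% in the second cycle.

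**Figure D4:**
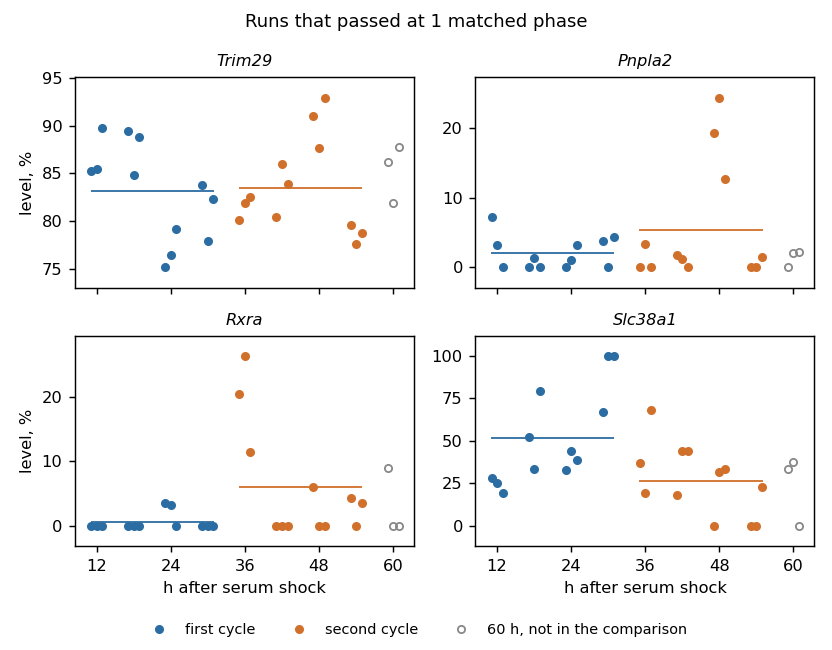
Methylation level (percent) against hours after serum shock for the 4 runs with a difference called in a single phase. Each filled point is a library, horizontal lines are cycle means and open points are the 60 h libraries. The 36 h libraries of Rxra and the 48 h libraries of Pnpla2 stand above all others.

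No member of the 12 gene lists was called between the cycles. Of 25 core clock genes 23 had a run, 55 runs in all, with a median difference of -0.224 points against 0.0511 over all runs. Unadjusted p-values under 0.05 were found in 4 of the 55 (7.27%, against 4.33% of all runs). The start of Clock itself (chromosome 5, 76303780 to 76304506, 125 positions) had 0.461% to 5.45% (median 3.25%) in the first and 0.0846% to 3.19% (median 1.17%) in the second cycle, a difference of -1.39 points (SE 0.557, adjusted p = 0.985). The other 3 were a run near its paralogue Npas2 with 9.47% and 12.7%, one in the repressor gene Cry2 with 6.81% and 11.3%, and one in Nr1d2, a REV-ERB repressor, with 0.983% and 2.11%. The runs over the starts of Npas2 and Cry2 had 17.3% and 17.0%, and 1.62% and 1.98%. The longest runs of the repressor genes were low in both cycles: Per1 had 4.02% and 3.42%, Per2 1.91% and 1.5%, Cry1 4.44% and 3.98%, and Nr1d1 2.43% and 1.96%. The run that Dbp, a clock output factor, shares with Car11 had 5.21% and 7.55% (interval -0.232 to 4.91 points).

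E-boxes at gene starts had nearly the same mean level in both cycles. CACGTG, which reads the same on both strands, occurs in 2243 of 31396 autosomal windows from 250 bp before to 50 bp after a start (7.14%), and the central CpG was measured in 646 of these. No other motif was searched. The 860 measured positions in it had a mean of 8.40% in the first and 8.36% in the second cycle, and the 198014 other measured positions in start windows 7.27% and 7.32%. None of the 860 was called, and 45 (5.23%) had an unadjusted p under 0.05, against 3.23% of the other positions and 3.89% of all positions. Among clock genes it was measured at 3 sites of Ciart, a CLOCK repressor, with 1.91%, 2.82% and 6.64% in the first and 1.48%, 2.11% and 5.10% in the second cycle, and at 1 site of Tef, an output factor, with 3.87% and 3.45%.

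No muscle gene was called. Of 23 myogenic regulators 18 had a run, and of 34 genes of sarcomere and muscle structure 17, with median differences of 0.110 and -0.0363 points and 2 of 30 (6.67%) and 1 of 29 runs (3.45%) at an unadjusted p under 0.05, against 4.33% of all runs. Myod1, the master regulator of the myogenic lineage, had 43.3% to 64.6% (median 57.6%) in the first and 48.2% to 62.5% (median 55.4%) in the second cycle over 32 positions of its body (chromosome 7, 46376422 to 46376849, interval of the difference -4.59 to 3.10). Myog, which drives differentiation, had 83.1% and 84.7%, the actin gene Acta1 10.0% and 9.81%, the intermediate filament gene Des 8.01% and 9.09%, and the insulin-responsive glucose transporter gene Slc2a4 23.2% and 22.2%. Ryr1, the calcium release channel, had 21.8% and 15.8% (SE of the difference 1.98, adjusted p = 0.985), lower in 10 of 12 matches. Mymx, a peptide of myoblast fusion, had 50.2% and 60.2% in a run shared with Slc29a1, and Tcf4 4.21% and 2.38%. Cav3, the muscle caveolin, had 15.7% and 11.4%.

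No gene of the methylation machinery or the cell cycle was called. Of 18 writers, erasers and readers 13 had a run, and 1 of 30 runs (3.33%, against 4.33% of all runs) had an unadjusted p under 0.05, the start of the de novo methyltransferase gene Dnmt3a with 2.61% and 1.5%. The median difference of the list was -0.677 points. Dnmt3b had 1.75% and 1.00%, the oxidase gene Tet2 1.32% and 1.85%, and a run shared by Aire and Dnmt3l 55.0% and 48.5%. Among cell cycle genes, 27 of 31 were measured and the median difference was 0.149 points. Of their 64 runs 1 (1.56%, against 4.33% of all runs) had an unadjusted p under 0.05. It lay at the tumour suppressor Rb1, with 0.471% and 2.49% in a run shared with Lpar6. The replication licensing gene Mcm2 had 3.02% and 4.21%. Immediate-early genes, which serum induces, had 1 of 85 runs (1.18%) at an unadjusted p under 0.05, with a median difference of -0.00718 points: Fos had 97.8% and 94.1%. Srf, the serum response factor gene, had 2.09% and 1.33%.

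Metabolic genes gave no call between the cycles over the 4 phases either, though the Pnpla2 run described above was called at 48 h against 24 h. Glucose metabolism had 29 of 34 genes measured and a median difference of -0.0917 points. Of its 73 runs 1 (1.37%, against 4.33% of all runs) had an unadjusted p under 0.05, the start of the hexokinase gene Hk2 with 6.52% and 4.58%. A run at the start of Yod1 that Pfkfb2 borders had 2.33% and 4.35%. Lipid and mitochondrial metabolism had 26 of 29 genes, a median of 0.130 points and 4 of 55 runs (7.27%, against 4.33% of all runs). These were at Cpt1a, which brings fatty acids into mitochondria, with 76.5% and 83.7% at one run and 4.48% and 2.18% at another, at Lipe, hormone-sensitive lipase, with 92.8% and 90.4%, and at a second run of Pnpla2 (chromosome 7, 141460414 to 141460551) with 85.3% and 80.7%.

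Genes known for stable marks had wider intervals than all runs together, whose median level was 5.63%. Imprinted genes, methylated on the copy of a single parent at their control regions, had 29 of 38 genes with a run and 4 of 46 runs (8.70%, against 4.33% of all runs) at an unadjusted p under 0.05. Their intervals were wide, with a median half-width of 7.80 points against 2.56 over all runs, and their median difference was 0.495 points. The median level of these 46 runs was 45.4%. All runs at 10% to 50% had a median half-width of 4.64 points, and 5.88% of them had an unadjusted p under 0.05. The start of Igf2r with Airn had 29.0% to 71.1% (median 53.3%) in the first and 21.7% to 58.3% (median 45.1%) in the second cycle. Its difference was -8.20 points (SE 4.45, interval -17.5 to 1.13, adjusted p = 0.985). Peg3 had 49.6% and 47.0% with an interval from -20.9 to 15.6. Zrsr1, in a run inside its host gene Commd1, had 52.4% and 39.0%, H13 6.16% and 2.33%, Dlx5 8.55% and 18.4%, and Inpp5f 2.62% and 4.11%. H19 had no run. Germline genes, which somatic cells silence by methylation, had 22 of 30 genes with a run, a median of 0.351 points and 4 of 36 runs (11.1%, against 4.33%) at that level. These 36 runs had a median level of 72.5% and a median half-width of 3.97 points. All runs at 50% to 90% had a median half-width of 5.15 points, and 6.22% of them had an unadjusted p under 0.05. Dazl, an RNA-binding protein of germ cells, had 74.0% and 73.4%, the piRNA factor gene Mael 91.3% and 94.2%, Dppa2 55.2% and 47.4%, the cohesin gene Smc1b 72.7% and 69.4%, and a run near Sycp2, of the synaptonemal complex, 10.2% and 26.6%.

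Hox genes, which set position along the body axis, had 34 of 39 genes with a run, a median difference of 0.295 points and 7 of 95 runs (7.37%, against 4.33% of all runs) at an unadjusted p under 0.05. Of these, 5 were higher in the second cycle, among them Hoxb5 with 5.65% and 8.06%, Hoxb8 with 15.4% and 17.0%, Hoxc10 with 0.410% and 3.13%, and 1 run of Hoxb13 with 9.02% and 11.3%. Lower were Hoxa11 with 3.47% and 1.97% and a neighbouring run of Hoxb13 with 16.0% and 13.1%. Markers of fibroblasts, adipocytes, neurons and immune cells, 18 of 26 measured, had none of 35 runs at that level in limma and a median difference of 0.160 points. Pdgfra, a receptor of fibroblasts, had 57.1% and 69.6%, and Gpr162, in a run that borders the T-cell gene Cd4, 2.81% and 4.58%.

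**Figure D5:**
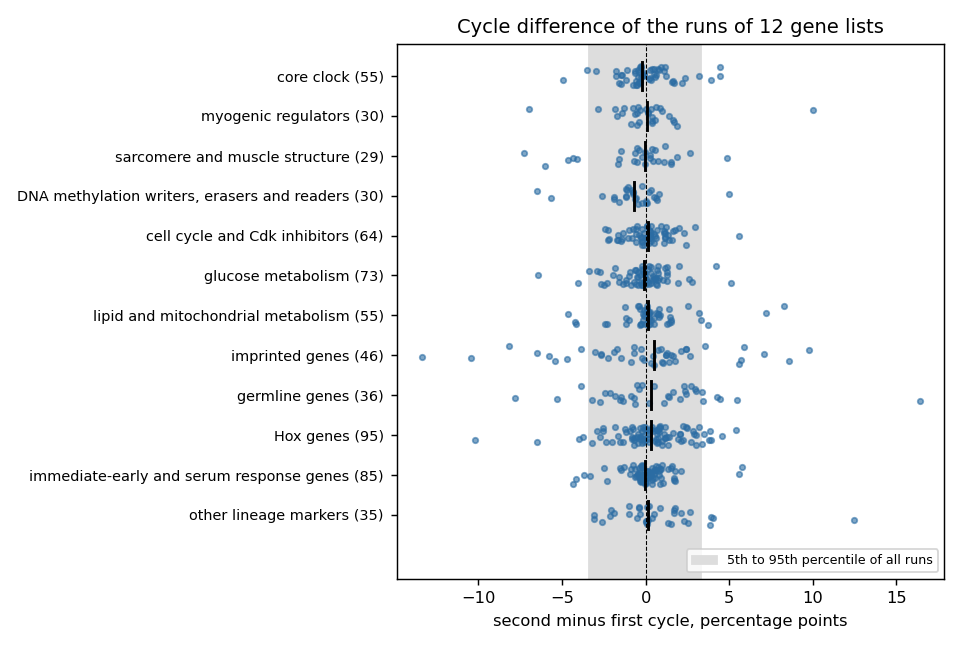
Difference between the cycles (percentage points, second minus first) of each run of the 12 gene lists, with the number of runs per list. Points are runs, black marks are list medians and the grey band spans the 5th to 95th percentile of all runs. The medians lie from -0.677 to 0.495 points, against 0.0511 over all runs.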

How the data were processed

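RRBS levels of 24 of the 27 C2C12 libraries were compared. Per the submitters' processing notes, reads were handled with Bismark 0.14.4, Bowtie2, cutadapt 1.9.1 and Trim Galore 0.4.0 on build mm10, with no order or settings stated. The authors deposited 1 table that gives, for each position and library, the methylated fraction, without read counts, so depth is unknown and no level was weighted or given a counting error. A level resting on few reads can only take coarse values, 0 and 100% among them.

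Columns were matched to samples by time point and replicate number. Of 917726 autosomal positions, 61864 lacked a level in at least 1 of the 24 libraries and were left out, as were 19918 on X. In start windows 99.98% of positions lay on the C or G of a CG when counted from 1. Run levels in percent were fitted with limma 3.58.1 (R 4.3.3), with cycle, phase and replicate number as terms and 17 residual degrees of freedom. Benjamini-Hochberg adjustment ran over all 22981 runs, with a threshold of 0.05, two-sided. Phase contrasts and the interaction came from a fit with time point and replicate number. Library means were tested over all 160000 arrangements of the cycle labels within phase. The model was tested on simulated levels. Python 3.11.15, pandas 2.3.3, scipy 1.17.1 and matplotlib 3.10.9 were used for the rest.

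The runs named are the 10 with the smallest p in each direction, the 5 with the largest difference in each direction among those with an unadjusted p under 0.05, the 5 with the smallest interaction p, the 5 intermediate runs with the narrowest interval, those called in a phase, 2 per gene list and 1 for each of a set of chosen genes. Other list runs with an unadjusted p under 0.05 were added after their values were seen. A run belongs to a gene that it overlaps or lies within 1000 bp of, in RefSeq's table of GRCm38.p6. The comparison and the gene lists were chosen with earlier results of these data known. Alternatives were other blocks, M values, gaps of 50 or 200 bp, medians, level and length filters, positions kept, a library covariate, other limma settings and libraries, numbers or phases left out.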

Additional observations from a re-analysis of the deposited data

Results flagged for a closer look

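The run of Trim29 is listed because its cycle difference was not the same in the 4 phases by a test of that difference itself (limma's interaction F test, adjusted p = 0.0462 over all runs). It was the 1 run to pass, its level was 13.6 points higher at 48 h than at 24 h and -2.70 to -5.32 points different in the other phases, and the call was lost in 19 of the 24 omissions of a library. The adjusted p was 0.0854 without the replicate block, 0.474 on M values and 0.214 among runs at 10% to 90%. The call was kept without replicate 1 or 2 of 30 h, 3 of 36 h, or 1 or 2 of 42 h.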

How the results depend on the processing

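No run was called between the cycles with any 1 library left out (0 in each, smallest adjusted p 0.0961 to 0.987), and 908 to 1133 had an unadjusted p under 0.05, of which 45.5% to 59.1% were higher in the second cycle. Without T12 replicates 1 and 3 together, chosen after seeing the data, that share was 41.1%. Leaving out all libraries numbered 1 gave 1 call, at the start of Sim1 (chromosome 10, 50894658 to 50895808, 6.46 points, adjusted p = 0.0377), which had 3.20 points (adjusted p = 0.985) with all libraries and was singled out after its value was seen. The count at an unadjusted p under 0.05 was 1757 with gaps of at most 50 bp and 553 among runs of at least 20 positions. It was 424 among the 8516 runs at 10% to 90% and 10053 among positions at 10% to 90%. These settings test other numbers of features, so the counts cannot be set directly against that of all runs. In the main fit the same 8516 runs had 510 (5.99%), so fitting them alone also changed the count. Same-numbered libraries did not deviate together (mean correlation 0.00354 over 84 pairs, none over 0.1), so the numbers were not found to pair them. Without the replicate block no run was called at 54 h against 30 h (0, smallest adjusted p 0.186) or in the interaction (0, 0.0854). With signs flipped within phase and number as a replicate block, p was 0.655 for the library mean and 0.315 for the intermediate share. M values gave 0 calls at 36 h against 12 h (0.0780), 0 at 48 h against 24 h (0.366) and 0 in the interaction (0.474). Runs at 10% to 90% alone gave 0 in each (0.594, 0.14 and 0.214), a filter that leaves out the Rxra and Pnpla2 runs, whose mean level is under 10%, so that of these calls it tests that of Trim29. With a library left out, calls ranged from 0 to 3 at 36 h against 12 h (3 without T36 replicate 3), 0 to 3 at 42 h against 18 h (3 without T42 replicate 2), 0 to 8 at 48 h against 24 h (8 without T48 replicate 2), 0 to 1 at 54 h against 30 h and 0 to 4 in the interaction (4 without T36 replicate 3). The library mean difference ranged from -0.0378 to 0.143 points, was below 0 without T12 replicate 3, T24 replicate 1 or T48 replicate 3, and was -0.00860 without 24 h with 48 h, and the intermediate share from 0.0513 to 0.50. Of 2024 values of 52 named runs 1 changed direction: Mael was -0.376 with the median over positions. These runs were picked for a small p or a large difference on the same libraries, so their kept direction reflects the choice and supports nothing. The count does not take in the phase and interaction calls. Of 805 values of 21 other named runs, compared by size alone, 1 moved by more than the spread: the run shared by Car11 and Dbp was 0.0793 without 24 h with 48 h. The cause was not tested. Depth is unknown, so its part in the spread was not tested.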

Other observations

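At single positions no level differed between the cycles either (0 of 855862 called in limma, 33277 or 3.89% with an unadjusted p under 0.05, smallest adjusted p 0.946). The smallest p belonged to a CpG near Fzd10, a Wnt receptor gene (chromosome 5, 128600618 and 128600619), which had -15.1 and -15.3 points in the second cycle. Next were positions at the prostaglandin receptor gene Ptger2 (chromosome 14, 44989279 to 44989303), 10.1 to 13.3 points higher, and at the acetylcholinesterase gene Ache (chromosome 5, 137293336 to 137293377), 7.94 to 9.43 points higher. By chromosome, the median difference over runs lay between -0.0112 points on chromosome 5 and 0.166 points on chromosome 14.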
